A study of Homo sapiens with 19 samples.

Results

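Integrins are receptors on the cell surface that hold cells to the matrix around them. Each is a pair of an α and a β subunit, and the pair decides which ligand is bound, such as collagen, fibronectin or laminin. Laminins are the trimers of an α, a β and a γ chain that form the sheet of the basement membrane, on which epithelial cells of the kidney tubule rest. The subunit ITGB4 pairs with ITGA6 alone and anchors cells to laminin at hemidesmosomes, whereas ITGB1 and ITGAV pair with many partners.

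The genes of these subunits were taken from the RNA-seq count table by their symbols, which had to start with ITGA, ITGB, LAMA, LAMB or LAMC followed by a digit or by one of the letters of the integrin α subunits. The 3 symbols that start with ITGB1BP or ITGB3BP, which name no integrin subunit, were left out. The rule gave 40 of the 23441 genes of the table. They were 18 integrin α subunits, 8 integrin β subunits, the β-like protein ITGBL1, which is no receptor subunit, 5 laminin α chains, 5 laminin β genes including the pseudogene LAMB2P1, and 3 laminin γ chains. The family was chosen by a measured value, the higher level of ITGB4 in cells that re-express HIF-1α, and that value is therefore given below as a description with no test. Of the 40 genes, 31 had enough counts to be tested.

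The cells were 786-O, an established line of clear cell renal carcinoma with defective VHL, in which HIF-2α is present in normoxia and only truncated HIF1A transcripts are made. Pools of these cells were infected with a lentivirus made from the vector pRRL, in which an IRES links the insert to EGFP. Control cells received the empty pRRL virus, HIF-1α re-expressing cells the virus with HIF-1α, and HIF-2α overexpressing cells the virus with HIF-2α, which added to the HIF-2α that all 3 pools already had. Each pool gave 3 libraries of polyadenylated RNA, numbered 1 to 3, and 7 lists of ChIP-seq peaks were used (HIF-2α and HIF-1β in each pool, HIF-1α in the re-expressing cells), with 1 library for each. No source states that the 3 RNA preparations came from separate cultures or infections, so that p-values measure the spread between these preparations. In pools of cells, fewer cells that express a gene and less RNA per cell cannot be told apart.

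The libraries held 27852754 to 54287621 counts. HIF1A was at 30.4 to 152 counts scaled to library size (CPM, edgeR's TMM-scaled total) in control cells, at 172 to 1682 in the re-expressing cells and at 15.3 to 30.4 in the HIF-2α overexpressing cells. EPAS1, which encodes HIF-2α, was at 880 to 3244 CPM in the overexpressing cells and at 162 to 456 CPM in control cells. In HIF-1α re-expressing against control cells EPAS1 had a log2 difference of 0.925 (SE 0.544, edgeR adjusted p = 0.365). With the block defined below it was 0.95 (SE 0.426, edgeR adjusted p = 0.154). All 9 renal epithelial markers listed were expressed, with KRT18 lower in HIF-1α re-expressing than in control cells and CDH6 higher than in HIF-2α overexpressing cells with the block defined below. The 5 endothelial markers were each under 1 CPM in every library, and their sum was 0.313 to 0.647 CPM in control cells and 0.833 to 1.62 CPM in HIF-1α re-expressing cells. The 5 fibroblast and mesangium markers, of which COL1A2 and DCN were under 1 CPM in every library, summed to 2.69 to 9.51 CPM in control cells, 2.53 to 19.2 CPM in HIF-1α re-expressing cells and 1.76 to 15.4 CPM in HIF-2α overexpressing cells. Of 6 leukocyte markers 5 were under 1 CPM in every library. The exception was LAPTM5, a lysosomal membrane protein of blood cells, at 0.825 to 2.72 CPM in control cells, 1.24 to 11.8 CPM in HIF-1α re-expressing cells and 0.1745 to 0.602 CPM in HIF-2α overexpressing cells. The part of these markers in the results below was not tested. Libraries with the same number in different pools resembled one another, and each comparison was therefore fitted both without and with the replicate number as a term, called the replicate block.

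Because the peaks lie close to several of these genes, stretches of genome that carry the core of the hypoxia response element (HRE, ACGTG or GCGTG on either strand) or an AP-1 site (TGACTCA, or TGAGTCA, which is the same site on the other strand) are shown first, with the matches in capitals. They are read on the plus strand of GRCh37. The sequences at ITGAV, LAMB1 and LAMA5 come from HIF-1α peaks of the re-expressing cells, and that at LAMB3 from a HIF-2α peak of the overexpressing cells. Each holds the match nearest to the midpoint of its peak. The starts of transcription meant at ITGAV and LAMB1 are annotated starts inside these genes, not their outermost ones. The peaks were picked by hand and do not stand for all peaks near members. LAMB1 and LAMB3 passed the threshold in no comparison, and the HIF-1α peak at ITGB3 held no HRE core within 150 bp of its midpoint.
ITGAV, chr2:187454791-187454819, start of transcription: gcctcagacgctGCGTGgagcggcggagc
LAMB1, chr7:107642581-107642609, start of transcription: tgaacccGCGTGCACGCggcagcccgcgc
LAMA5 AP-1 site, chr20:60944493-60944555, upstream: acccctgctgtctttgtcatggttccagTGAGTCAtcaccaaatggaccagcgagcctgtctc
LAMA5 HRE core, chr20:60944752-60944812, upstream: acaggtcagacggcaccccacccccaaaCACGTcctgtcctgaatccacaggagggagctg
LAMB3, chr1:209830642-209830702, upstream: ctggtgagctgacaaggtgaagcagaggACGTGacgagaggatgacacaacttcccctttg

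In control cells 3 integrin subunits were the most abundant members. Per kilobase of annotated exon, ITGA3, the α subunit of a laminin receptor, stood highest at 144 ± 61.3 CPM per kb (SD, n = 3), followed by its partner ITGB1 at 122 ± 17.5 and by ITGB5, which joins ITGAV in a vitronectin receptor, at 75.0 ± 14.8. The first 2 do not differ beyond their spread. Of the laminin chains LAMC1, the common γ chain, was highest at 38.0 ± 5.96 CPM per kb, and LAMB3, the β chain of the laminin beneath hemidesmosomes, had a mean of 35.7 with an SD of 41.5. LAMB3 did not differ beyond its spread from LAMB1 (24.8 ± 13.3) or LAMB2 (22.6 ± 11.5), the broadly used β chains. LAMA3, the α chain that joins LAMB3, led the laminin α chains at 11.45 ± 0.385 CPM per kb, above LAMA5 at 1.05 ± 1.01. ITGB4 stood far lower, at 0.277 ± 0.355 CPM per kb, while its only partner ITGA6 was at 8.37 ± 5.12. This order depends on the exon lengths, taken over all annotated exons of a gene. By CPM alone ITGB1 (1778 ± 255) stood above ITGA3 (1415 ± 601), and LAMB1 (461 ± 246.5) above LAMC1 (321 ± 50.3). The plot of levels per kb in control cells shows the whole order.

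**Figure D1:**
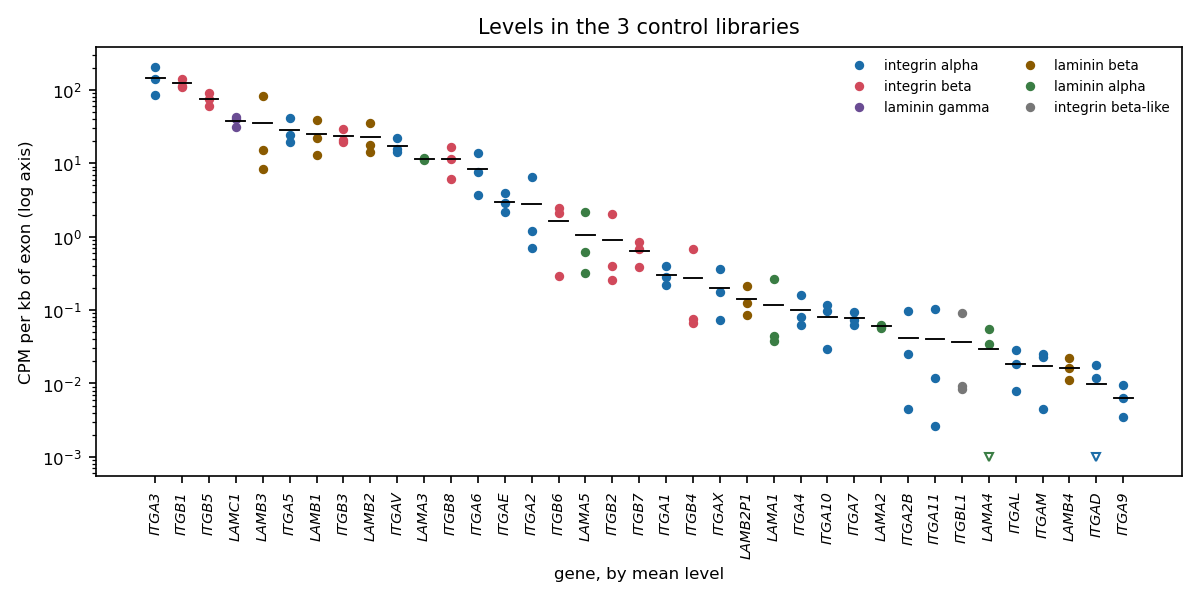
Levels of 37 of the integrin and laminin genes in the 3 control libraries (points, CPM per kb of exon on a log axis), ordered by their mean (bars) and coloured by family. Open triangles at the bottom mark genes with a library at 0 counts, and ITGA8 and LAMC3, at 0 counts in all 3 libraries, are left out. ITGA3, ITGB1 and ITGB5 lead, and ITGB4 is far below them.

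The 9 members that were not tested were ITGA8, ITGA9, ITGAD, ITGAL, ITGAM, ITGBL1, LAMB2P1, LAMB4 and LAMC3. ITGA8, the α subunit of kidney mesenchyme and mesangium, had 0 counts in all 9 libraries. ITGAD, ITGAL and ITGAM, α subunits of white blood cells, stayed under 1 CPM in every library. LAMB2P1 lies next to LAMB2, with which it shares sequence, and held 117 counts in HIF-1α re-expressing replicate 3 against 2 to 15 in the other libraries. Reads may therefore be split between these genes in a way that the counts do not show.

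ITGB4 was at 0.517, 0.455 and 4.64 CPM in control replicates 1 to 3. In HIF-1α re-expressing cells it was at 2.45, 2.43 and 29.6 CPM. The pools overlapped, since control replicate 3 lay above 2 of the re-expressing libraries, but within each replicate number the re-expressing library was higher, by 4.74, 5.34 and 6.38 times (mean 5.48 ± 0.83, SD, n = 3). The log2 difference was 2.62 (SE 1.25) without and 2.45 (SE 0.32) with the replicate block. Without HIF-1α re-expressing replicate 3 the log2 difference without the block was 0.38, and without control replicate 3 it was 4.55. In HIF-2α overexpressing cells ITGB4 was at 0.433, 0.558 and 2.75 CPM, 0.837, 1.23 and 0.593 times its paired control. This change did not pass the test (log2 -0.58, SE 1.21, adjusted p = 0.947, and -0.29, SE 0.33, adjusted p = 0.701 with the block). ITGA6, with which ITGB4 forms its receptor, was at 92.3, 51.0 and 24.4 CPM in control cells, at 144, 49.2 and 36.2 in HIF-1α re-expressing cells and at 94.6, 75.2 and 33.5 in HIF-2α overexpressing cells. Its log2 differences were 0.45 and 0.28 against control cells, and it was called in neither edgeR nor DESeq2.

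**Figure D2:**
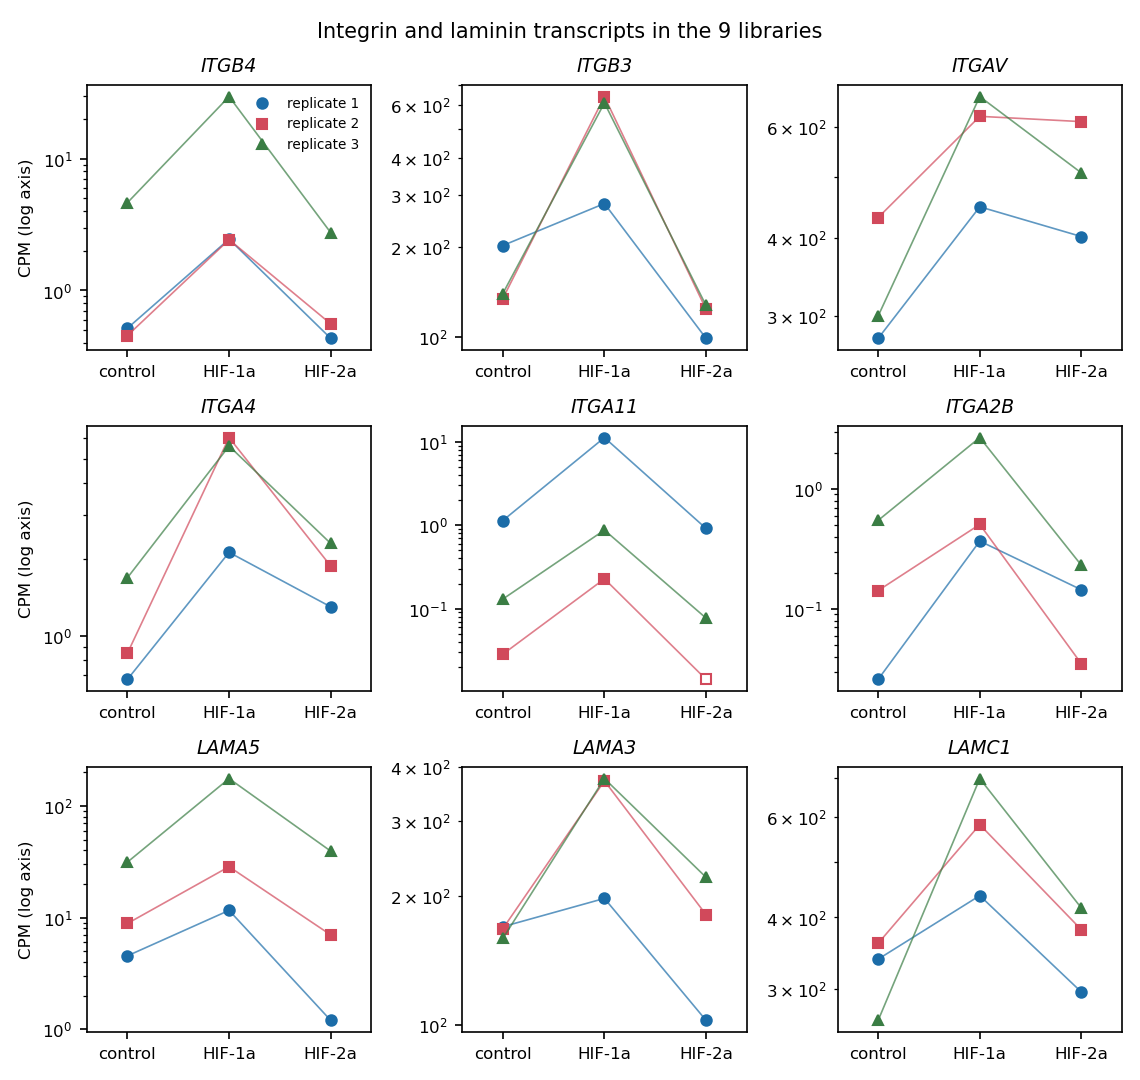
Levels of 9 members in the 9 libraries (CPM, log axes that differ between panels), with lines joining libraries of the same replicate number. The open symbol of ITGA11 marks 0 counts, drawn below the lowest value above 0. In ITGB4, LAMA5 and ITGA11 the numbers lie far apart, yet each line peaks in the HIF-1α re-expressing cells, and ITGB3 separates these cells from both other pools.

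Without the block no member and no gene passed the adjusted threshold of 0.05 between HIF-1α re-expressing and control cells (0 of 31 members in either direction, 0% of the 14225 genes higher and 0% lower). Before adjustment, p was under 0.05 for 9 members that were higher, 1 that was lower and 2757 genes in all. DESeq2 without the block called 3 members higher, ITGA1, ITGA4 and ITGB3, and 0 lower, beside 3.53% of genes higher and 1.71% lower. With the block in edgeR 6 of the 30 members other than ITGB4 were called higher and 0 lower, beside 5.41% of all genes higher and 2.55% lower. They were ITGA11, ITGA2B, ITGA4, ITGAV, ITGB3 and LAMA5. DESeq2 with the block called these and ITGA1, ITGA2, LAMA3, LAMB2 and LAMC1 higher and ITGAE and LAMA2 lower, beside 11.7% of genes higher and 9.85% lower. Values given below with the block are from edgeR unless DESeq2 is named. The median log2 difference of the tested members was 0.676 without and 0.795 with the block, beside 0.036 and 0.043 for all genes. Without the block it was 1.034 without control replicate 1, 0.436 without control replicate 2 and 0.425 without control replicate 3. Of the 31 tested members 18 were higher in all 3 pairs of libraries, beside 29% of genes, and 2 were lower in all 3, beside 25%. In the edgeR fit with the block, 0 members passed without replicate number 2 (0 genes in all) or number 3 (1 gene), and 4 other than ITGB4 passed without number 1. Since this comparison proposed the family, nothing is read from these counts.

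ITGB3 joins ITGAV in the vitronectin receptor and ITGA2B in the fibrinogen receptor of platelets. It was at 203, 135 and 140.0 CPM in control cells, at 280.4, 640.3 and 609.7 CPM in HIF-1α re-expressing cells and at 99.1, 124 and 128 CPM in HIF-2α overexpressing cells. The pools did not overlap. The re-expressing cells were above both others in every library, by 1.38, 4.75 and 4.36 times the paired control (log2 1.62, SE 0.32 with the block). Annotated exons of ITGB3 overlap those of a neighbouring gene on the same strand, ENSG00000259753, and how such reads were counted on the UCSC genes is not known here.

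Both α partners of ITGB3 were among the members called with the block in edgeR. ITGAV was at 277, 430.5 and 300.5 CPM in control cells and at 448, 623 and 669.6 in HIF-1α re-expressing cells, which did not overlap. In HIF-2α overexpressing cells ITGAV was at 402, 611 and 507 CPM, and thus overlapped with both other pools. ITGA2B was scarce, at 1, 5 and 21 counts in control cells against 15, 20 and 144 in HIF-1α re-expressing cells and 6, 1 and 9 in HIF-2α overexpressing cells, and its log2 difference of 2.29 (SE 0.59, block) between the first 2 pools rests on few reads. ITGB5, another partner of ITGAV, showed no such pattern, with 493, 390.0 and 583 CPM in control and 394, 512 and 640.4 CPM in re-expressing cells. ITGA5, the α subunit of the fibronectin receptor, was at 145 to 303 CPM in control and 226 to 428 CPM in re-expressing cells, which overlapped.

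ITGA4, which binds VCAM1 and fibronectin, was at 0.673, 0.854 and 1.69 CPM in control cells and at 2.13, 6.05 and 5.60 CPM in HIF-1α re-expressing cells. These pools were apart, whereas HIF-2α overexpressing cells, at 1.30, 1.88 and 2.31 CPM, overlapped with both. Exons of ITGA4 overlap those of CERKL on the opposite strand, and the strand setting of the counting is not given in the sources used here.

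The collagen receptors ITGA1, ITGA2, ITGA10 and ITGA11 all had positive log2 differences between HIF-1α re-expressing and control cells. ITGA11 was at 1.14, 0.0285 and 0.130 CPM in control cells, at 11.2, 0.228 and 0.875 in HIF-1α re-expressing cells and at 0.915, 0 and 0.0771 in HIF-2α overexpressing cells. In counts these were 44, 1 and 5 in control cells and 458, 9 and 47 in re-expressing cells, so that replicate 1 supplied most of the reads. ITGA1 was at 4.04 to 7.43 CPM in control and 11.2 to 30.4 CPM in re-expressing cells, which did not overlap, but HIF-2α overexpressing cells spanned 6.60 to 18.7 CPM.

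LAMA5, the α chain of most adult basement membranes, was at 4.55, 8.88 and 31.5 CPM in control cells. In HIF-1α re-expressing cells it was at 11.6, 28.6 and 176 CPM. In HIF-2α overexpressing cells it was at 1.20, 7.01 and 39.5 CPM. The pools overlapped, but every pair was higher in the re-expressing cells, by 2.55, 3.22 and 5.59 times the control. LAMA4, the α chain of vessels and muscle, had the largest log2 difference of the 31 tested members without the block (3.75, SE 1.28), from 16, 0 and 25 counts in control cells to 49, 48 and 648 counts in re-expressing cells. Without re-expressing replicate 3 it was 1.75. LAMA3 (160 to 170 CPM against 198 to 377 CPM) and LAMC1 (264 to 361 CPM against 437 to 699 CPM) were higher in every HIF-1α re-expressing library than in every control library. With the block edgeR called neither and DESeq2 called both. LAMA2, the α chain of muscle, went the other way, with 1.53, 1.68 and 1.54 CPM in control and 0.931, 0.734 and 0.354 CPM in re-expressing cells (log2 -1.27, SE 0.41 with the block). With the block it was called by DESeq2 and not by edgeR. The other members named for a negative log2 difference here were ITGAE, the partner of ITGB7 on lymphocytes, at -0.63 (SE 0.31, no block), and ITGB6, the β subunit of an epithelial receptor for latent TGF-β, at -0.44 (SE 0.74, no block).

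**Figure D3:**
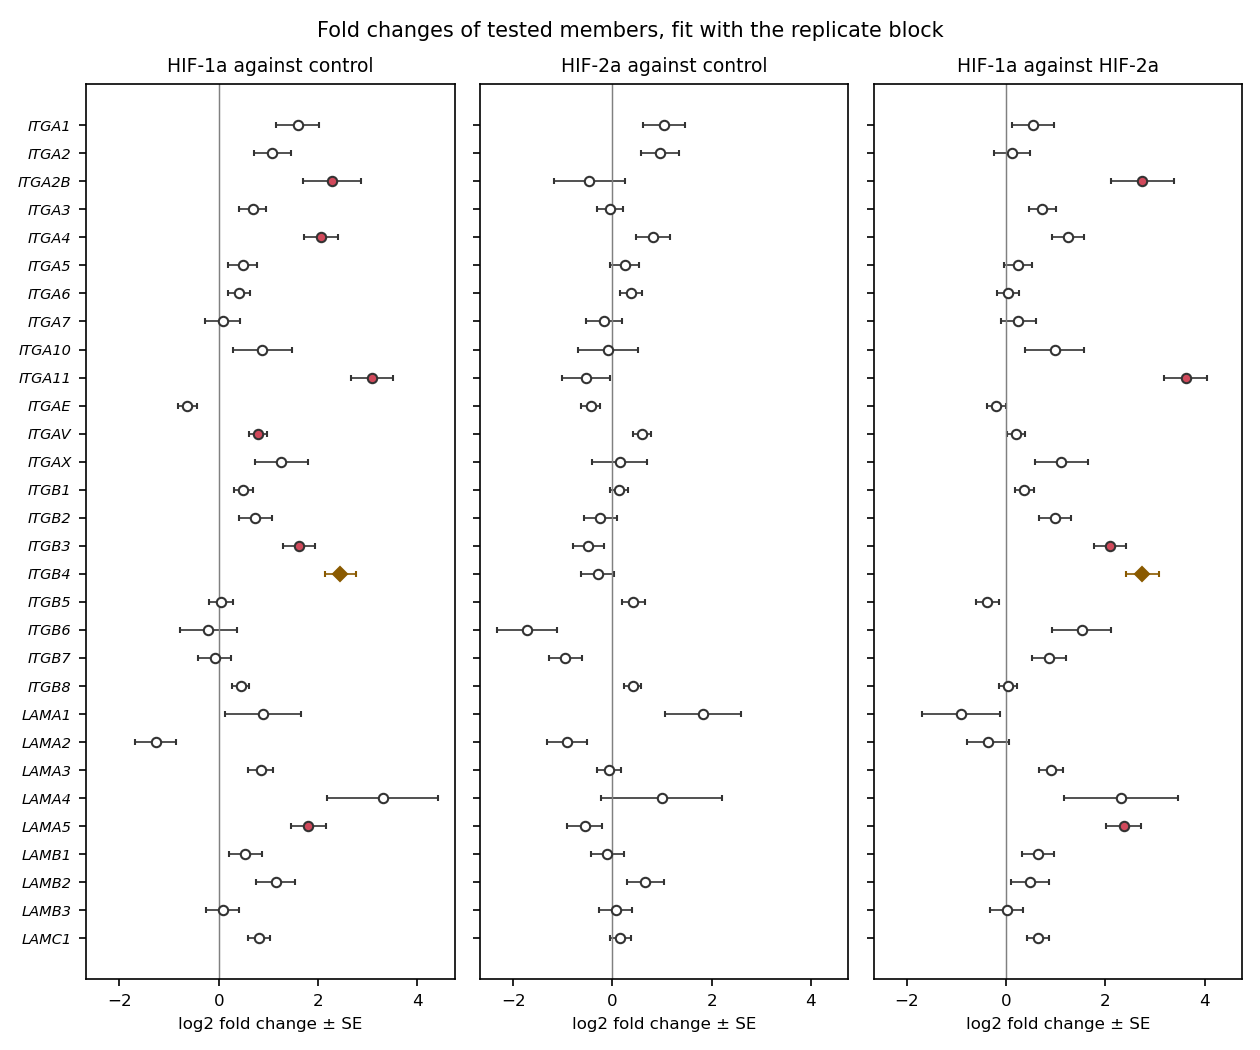
Log2 fold change with its SE for 30 of the tested members in the 3 comparisons, from the edgeR fit with the replicate block. Filled circles passed the adjusted threshold of 0.05, open circles did not, and diamonds mark ITGB4, the value on which the family was chosen, shown with no test. No member passed in HIF-2α overexpressing against control cells in this fit.

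In edgeR, overexpression of HIF-2α left no member past the threshold against control cells, without (0% of genes higher, 0% lower) or with the block (0.112% of genes higher, 0.155% lower). Before adjustment, p was under 0.05 for 2 members without the block, both lower (ITGB6 and ITGB7), beside 838 genes, and for 6 higher and 3 lower members with it, beside 2067 genes. DESeq2 called 0 members without the block, beside 0.228% of genes higher and 0.184% lower. With the block it called ITGB6 lower, beside 1.86% of genes higher and 1.52% lower. The median log2 difference was 0.023 without and -0.047 with the block. In all 3 pairs 6 members were higher, beside 19.7% of genes, and 6 were lower, beside 19.4%. Without the block the largest difference was that of ITGB6, at 1.68, 14.2 and 12.2 CPM in control and 1.59, 1.15 and 3.80 CPM in HIF-2α overexpressing cells (log2 -2.10, SE 0.78, adjusted p = 0.819, and -1.73, SE 0.60, adjusted p = 0.264 with the block). ITGB6 was low in control replicate 1 too, so that the pools overlapped. ITGB7, a β subunit of lymphocyte receptors, was at 3.78, 3.04 and 1.69 CPM in control and 1.71, 1.78 and 0.899 CPM in overexpressing cells (log2 -0.96, SE 0.42, adjusted p = 0.837). LAMA2 was at 0.794, 0.698 and 1.00 CPM, below every control library (log2 -0.92, SE 0.44, adjusted p = 0.837). ITGB3 was also below every control library, with an adjusted p of 0.843 without and 0.481 with the block. On the other side stood LAMA1, the α chain of embryonic basement membranes, at 4.24, 0.711 and 0.599 CPM in control and 5.97, 2.58 and 4.86 CPM in overexpressing cells (log2 1.27, SE 0.91, adjusted p = 0.843). The log2 difference of LAMA1 was 2.77 without control replicate 1 and 0.85 without control replicate 3. ITGA1 (log2 1.06, SE 0.49, and 0.53 without HIF-2α overexpressing replicate 2) and ITGA4 (log2 0.77, SE 0.52) followed, with adjusted p of 0.837 and 0.842.

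HIF-1α re-expressing and HIF-2α overexpressing cells were then compared with one another, which tests whether these pools differ. No source states separate infections per virus, so a difference between the proteins cannot be told apart from one between pools or amounts expressed. This comparison holds the same re-expressing libraries as the one that proposed the family. Without the block 0 members passed, beside 0.0281% of genes higher and 0.0211% lower in the HIF-1α cells, and p before adjustment was under 0.05 for 7 members, all higher, and for 1941 genes. DESeq2 without the block called 1 member, ITGB3, higher, beside 3.43% of genes higher and 0.994% lower. DESeq2 with the block called 8 members other than ITGB4 higher, beside 7.92% of genes, and 0 lower, beside 4.27%. In edgeR with the block 4 of the 30 tested members other than ITGB4 were higher in HIF-1α re-expressing cells and 0 lower, beside 4.54% of genes higher and 1.38% lower. ITGB3 was higher by a log2 of 2.10 (SE 0.32, adjusted p = 0.00834, 0.0541 without the block). ITGA11 was higher by 3.62 (SE 0.44, adjusted p = 0.00369, 0.394 without the block). LAMA5 was higher by 2.37 (SE 0.35, adjusted p = 0.0081, 0.477 without the block), and ITGA2B by 2.75 (SE 0.64, adjusted p = 0.0382, 0.259 without the block). ITGB4 was higher by 5.66, 4.35 and 10.8 times in the 3 pairs, given as a description. With each replicate number left out of all pools in turn, LAMA5 was past the threshold in 3 of 3 blocked fits, with a log2 of 2.08 to 2.55. ITGB3 passed in the fits without numbers 1 and 2 and had an adjusted p of 0.0528 without number 3. ITGA2B passed only without number 1. ITGA11 was not tested without number 1 and passed in both other fits. LAMA4 had a log2 difference of 3.20 (SE 1.25, adjusted p = 0.297 without the block), which was 1.20 without HIF-1α re-expressing replicate 3, and did not pass. ITGAV and ITGA1 did not pass between these pools, with log2 differences of 0.20 (SE 0.18, adjusted p = 0.513) and 0.55 (SE 0.42, adjusted p = 0.455) with the block. ITGA4 did not pass in edgeR (log2 1.25, SE 0.33, adjusted p = 0.0586) and passed in DESeq2 with the block (adjusted p = 0.00891). The members lowest in HIF-1α relative to HIF-2α cells were LAMA1 (log2 -0.56, SE 0.90), ITGB5 (-0.38, SE 0.30) and LAMA2 (-0.31, SE 0.44), with adjusted p of 0.606 to 0.827 without the block. In all 3 pairs 18 members were higher, beside 25.3% of genes, and 1 was lower, beside 24.1%.

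LAMB3 ranged more widely between the replicate numbers than between the means of the pools. LAMB3 was at 388, 71.3 and 38.8 CPM in control cells, at 239, 78.3 and 77.8 in HIF-1α re-expressing cells and at 263, 57.2 and 92.0 in HIF-2α overexpressing cells. It was highest in replicate 1 of every pool, as were ITGA3, ITGA6 and ITGA11 among others, 8 of 31 members in all beside 13.3% of genes. Replicate 3 was highest in every pool for ITGA2B, ITGAE, ITGB4, ITGB8 and LAMA5, 5 of 31 beside 12.3% of genes, and replicate 2 for ITGB1 alone, beside 9.41%. Thus ITGB4 and ITGA6, which form 1 receptor, had their highest libraries in different replicates. ITGB8, the β subunit that joins ITGAV to bind latent TGF-β, was at 91.5, 172 and 256 CPM in control, 122, 228 and 363 CPM in HIF-1α re-expressing and 146, 220.2 and 287 CPM in HIF-2α overexpressing cells, and was called in neither edgeR nor DESeq2. What the numbers stand for is not stated in the sources used here.

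**Figure D4:**
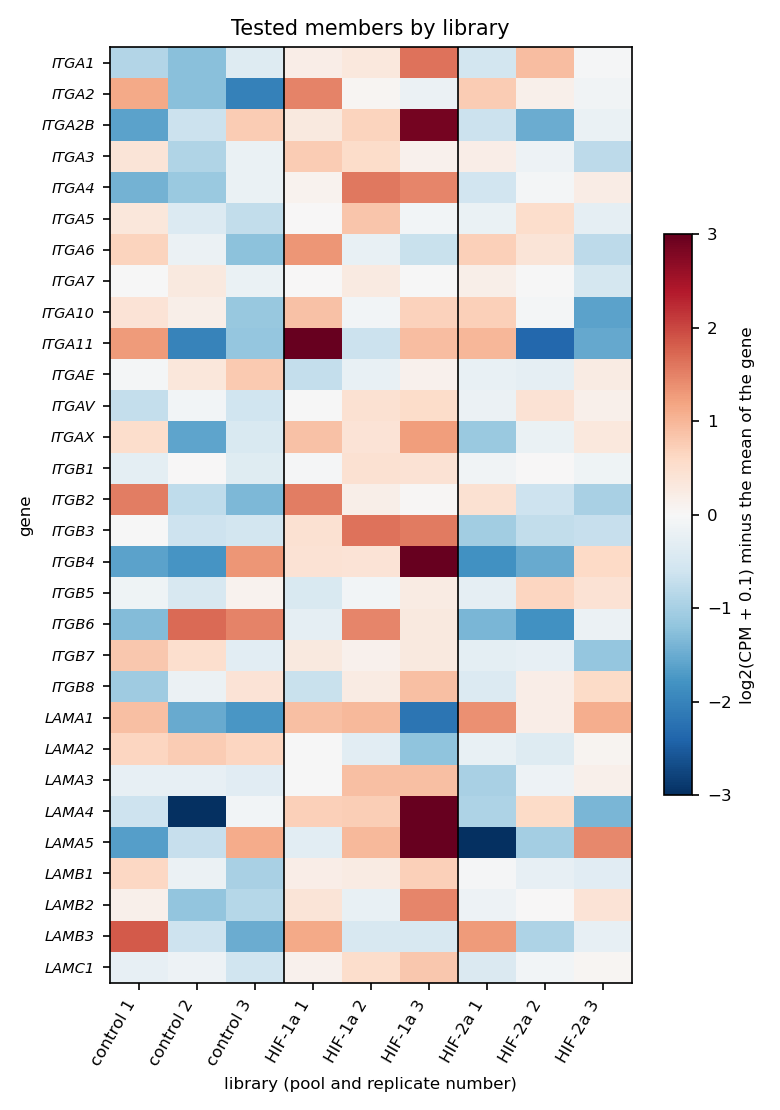
Level of 30 of the tested members in each library, as log2(CPM + 0.1) minus the mean of the gene over the 9 libraries (red above, blue below, colours end at 3), with vertical lines between the pools. ITGB3 is red in the HIF-1α re-expressing libraries, whereas LAMB3 and ITGA6 are reddest in replicate 1 of each pool.

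Genes that work with these receptors were followed by lists of their own, and the counts are from the edgeR fit with the block unless DESeq2 is named. In that fit 5.41% of all genes were higher and 2.55% lower in HIF-1α re-expressing than in control cells. The shares were 0.112% and 0.155% for HIF-2α overexpressing against control cells, and 4.54% and 1.38% for HIF-1α against HIF-2α cells. Shares for DESeq2 are those given above. The lists were written with earlier results of these data known, so nothing is read from their counts. Of 17 tested genes of the complex that links integrins to actin (talins, kindlins, integrin-linked kinase, paxillin, focal adhesion kinase and others), 0 passed in any of the 3 comparisons, and their median log2 difference between HIF-1α re-expressing and control cells was 0.028. Without the block edgeR and DESeq2 also called 0 of them. DESeq2 with the block called TLN2 higher and ZYX lower in that comparison, and LIMS2 and PXN lower in HIF-1α re-expressing than in HIF-2α overexpressing cells. Of the 4 hemidesmosome partners of ITGB4, DST, which encodes a plakin that ties ITGB4 to keratin, was higher in HIF-1α re-expressing than in control cells (log2 1.31, SE 0.24, adjusted p = 0.0327). PLEC, COL17A1 and CD151 were not past the threshold. Of 7 tested basement membrane partners 3 were higher and 0 lower in the same comparison, beside 5.41% and 2.55% of all genes. They were NID2 (log2 1.98, SE 0.24), a nidogen that links laminin to collagen, HSPG2 (log2 1.62, SE 0.28), which encodes perlecan, and BCAM (log2 1.35, SE 0.25), a receptor for the LAMA5 chain. Their adjusted p were 0.0264, 0.0315 and 0.0335.

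BCAM was at 1.63, 1.94 and 42.4 CPM in control cells, 2.55, 5.85 and 138.5 CPM in HIF-1α re-expressing cells and 0.385, 0.733 and 11.4 CPM in HIF-2α overexpressing cells, with a log2 difference from control cells of -1.83 (SE 0.28, adjusted p = 0.0372). NID1, the other nidogen, was lower in HIF-1α re-expressing than in HIF-2α overexpressing cells (log2 -1.75, SE 0.31, adjusted p = 0.0148), while NID2 was higher (log2 2.83, SE 0.25, adjusted p = 0.00115). Of 6 tested integrin ligands other than laminins 3 were higher in HIF-1α re-expressing than in control cells, beside 5.41% of all genes. FN1, fibronectin, was at 4196, 5985 and 2604 CPM in control cells, 12330, 24410 and 17810 CPM in HIF-1α re-expressing cells and 1505, 2098 and 4611 CPM in HIF-2α overexpressing cells (log2 2.03, SE 0.43, adjusted p = 0.0371 against control). TNC, tenascin, had a log2 difference of 1.33 (SE 0.33, adjusted p = 0.0452). VCAM1, the ligand of ITGA4, had one of 1.24 (SE 0.29, adjusted p = 0.0427), and was lower than control in HIF-2α overexpressing cells (log2 -3.09, SE 0.32, adjusted p = 0.0126). Without the block edgeR called none of these list genes. DESeq2 without the block called NID2, HSPG2 and FN1 higher in HIF-1α re-expressing than in control cells, and NID2, FN1 and VCAM1 higher and NID1 lower than in HIF-2α overexpressing cells.

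The 7 peak lists were then searched for peaks whose midpoint lay within 10 kb of any annotated start site of a member. Every listed peak is an interval of 2500 bp with no height, so that the midpoint is only a coarse position. HIF-1α peaks of the re-expressing cells lay near 13 of the 40 members, beside 23.9% of the 22063 genes that could be placed, and near 12 of the 31 tested members, beside 34.6% of tested genes. HIF-2α peaks lay near 7 members in control cells (3.74% of genes), 3 in HIF-1α re-expressing cells (3.04%) and 11 in HIF-2α overexpressing cells (10.4%). HIF-1β, the partner of both, had peaks near 11 members in control cells (18.3%), 13 in HIF-1α re-expressing cells (28%) and 8 in HIF-2α overexpressing cells (11.3%). With 1 library per list these counts carry no test.

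Of the 6 members called higher by edgeR with the block in HIF-1α re-expressing against control cells, ITGB3, ITGAV and LAMA5 had a HIF-1α peak and ITGA4, ITGA2B and ITGA11 had none within 10 kb. The midpoint lay 0.024 kb downstream of a start of ITGB3 and 0.028 kb downstream of one of ITGAV, and neither gene had a HIF-2α peak within 10 kb in any pool. At ITGB3 this rests on the limit of 10 kb, since HIF-2α peaks lay inside the gene, upstream of a later annotated start. The distances to that start were 11.6, 10.6 and 11.05 kb in control, HIF-1α re-expressing and HIF-2α overexpressing cells. A HIF-1β peak of control cells lay 11.05 kb upstream of the same later start. Within 10 kb of any start, HIF-1β had a peak at ITGB3 after HIF-1α re-expression but in neither other pool. At ITGAV it had one in none of the 3 pools. LAMA5 differed, since a peak was listed 1.78 to 2.50 kb upstream of its start for HIF-1α and for HIF-2α in all 3 pools. The midpoints for HIF-1α (2.13 kb) and for HIF-2α of control cells (2.15 kb) nearly coincided. ITGAE and ITGB5 were the only other members with peaks in all 7 lists, and edgeR called neither. These peaks were not all at the same place. In HIF-1α re-expressing cells the nearest HIF-1β peak of LAMA5 lay beyond the far end of the gene, 6.01 kb downstream of an inner start. That of ITGAE lay 0.454 kb upstream of a start inside the gene. DESeq2 with the block called ITGAE lower in HIF-1α re-expressing than in control cells.

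ITGB4 itself had no HIF-α peak within 10 kb. The nearest HIF-2α peak lay 20.6 kb upstream, within SAP30BP, in both control and HIF-2α overexpressing cells, and HIF-1β was listed there in these pools too. In HIF-1α re-expressing cells no HIF-2α peak was listed within 50 kb of ITGB4, the nearest HIF-1α peak lay 29.1 kb upstream, and a HIF-1β peak lay 0.606 kb from a start site inside the gene. A HIF-1α peak was also listed near ITGA3, ITGB1, ITGB2, ITGB8, LAMB1, LAMB2 and LAMC1, and near the untested ITGAL. LAMB3, ITGB6 and ITGB2 had a HIF-2α peak within 10 kb in HIF-2α overexpressing cells but in neither other pool. It lay 5.01 and 7.87 kb upstream of a start for LAMB3 and ITGB6 and 0.04 kb downstream for ITGB2. HIF-1β already had a peak nearby in control cells, 4.955 and 7.65 kb upstream for LAMB3 and ITGB6 and 0.401 kb downstream for ITGB2. In HIF-2α overexpressing cells a HIF-1β peak within 10 kb was listed at LAMB3 and ITGB2 and not at ITGB6. None of these genes was called by edgeR in HIF-2α overexpressing against control cells. DESeq2 with the block called ITGB6 lower in this comparison.

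**Figure D5:**
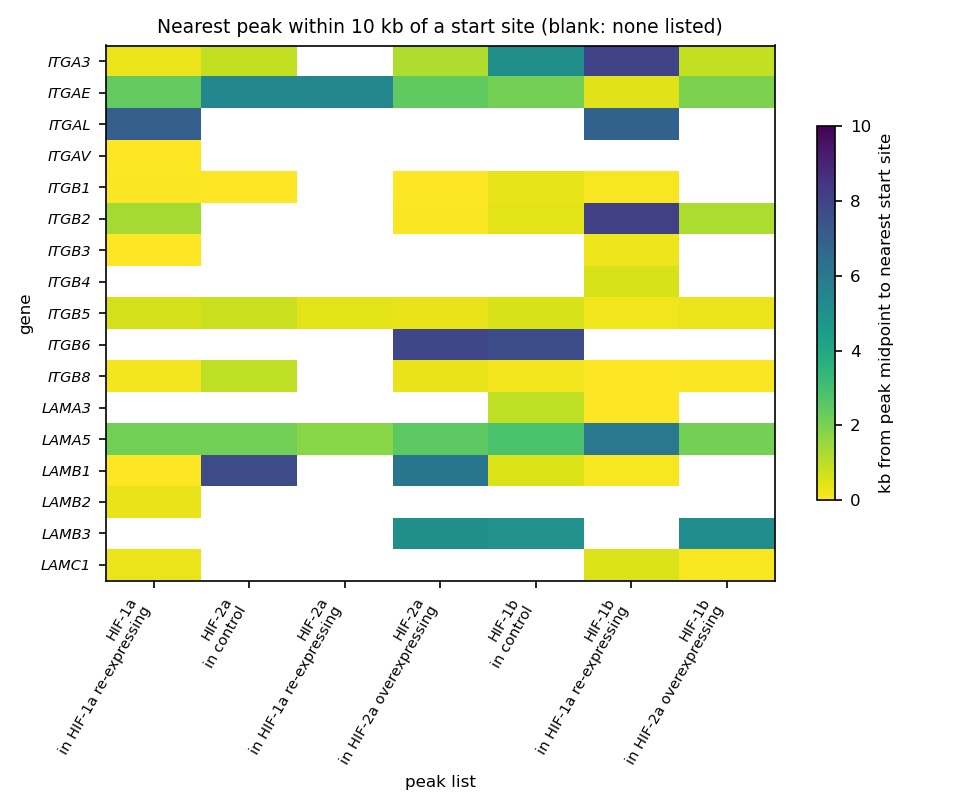
The 17 members drawn, each with a listed peak within 10 kb of a start site in at least 1 of the 7 lists, coloured by the distance in kb from the midpoint of the nearest peak to the nearest start site (blank where none is listed). ITGAV and LAMB2 have only a HIF-1α peak. LAMA5, ITGAE and ITGB5 have a peak in every list, though not always at the same start site.

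Within 150 bp of the midpoint, 4 of the 13 nearest HIF-1α peaks held an HRE core, those at ITGAV, ITGB1, LAMB1 and LAMC1, against 65.4% of all 5147 HIF-1α peaks. Within 500 bp 12 of 13 did, against 94.8%. At LAMB1 the core lay 4 bp from the midpoint, in a run of several. At LAMA5 the window of 300 bp held no core but the printed TGAGTCA, 24 bp from the HIF-1α midpoint, an AP-1 site which 7.73% of all HIF-1α peaks and 27.5% of HIF-2α peaks of control cells hold in a window of that length. Its nearest HRE core lay 282 bp away. Of the HIF-2α peaks of overexpressing cells near members, 8 of 11 held an HRE core within 150 bp, against 45.7% of that list, and 4 of 11 an AP-1 site, against 24.7%. At LAMB3 the printed ACGTG lay 107 bp from the midpoint of such a peak. These matches describe the letters of the windows and are not evidence of a bound site.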

How the data were processed

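RNA was measured in 9 libraries and HIF binding in 7 ChIP-seq libraries of 786-O pools. Per the labels and methods, the authors deposited whole-number counts per gene symbol, not normalised. They trimmed reads with Trim Galore 0.3.3, aligned them to GRCh37 with TopHat2 2.0.8b and Bowtie 1.0.0, kept unique fragments with SAMtools 0.1.19 and counted on UCSC genes with HTSeq 0.5.4p3 in intersection-strict mode, which drops reads not wholly within 1 gene's exons. The libraries were directional, but the strand setting of the counting is not given in the sources used here. For ChIP-seq they aligned with BWA 0.7.5a-r405 and removed duplicates (Picard 1.106) and blacklisted regions (bedtools 2.17.0). Peaks called by both T-PIC and MACS were kept only if their count passed a threshold set on random background regions. Positions alone were deposited, so that no score or depth is known. A place with no listed peak may still hold signal below that threshold. CPM are the counts over TMM-scaled library totals.

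Counts were fitted with edgeR 4.0.16 (R 4.3.3, quasi-likelihood test, TMM, filterByExpr, 14225 genes, Benjamini-Hochberg, threshold 0.05) over all 9 libraries with the pool as term. Alternatives added the replicate number as a block, used DESeq2 1.42.0, other size factors, no filter or only the pools compared, or left out libraries. The numbers pair the libraries by the data: after removal of pool means, correlations across genes were 0.348 to 0.652 in 9 pairs with the same number and -0.478 to 0.0281 in 18 pairs with different numbers. The labels give only the number. Both comparisons with control cells share the same 3 control libraries. Only the edgeR fit, with and without the block, was run on simulated counts with known changes, and no result above rests on that run. Genes were placed on GENCODE lifted to GRCh37 (20654 by symbol and 1409 by a RefSeq synonym), exon lengths came from the same annotation, and motifs were read from the GRCh37 sequence with Python 3.11.15.

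Members and lists were chosen with earlier results of these data known. Named were ITGB4 and every member past the threshold with or without the block. Named too were the 3 largest positive and negative log2 differences of each comparison without the block, and members with a HIF-1α or HIF-2α peak. Of each family, the gene with the highest CPM per kb in control cells was also named. ITGA5, ITGA6, ITGB8 and LAMC1 values were added as partners of these, after their values were seen. The lists of markers and partner genes are named in the text. Results for 1 member and some peak sequences are not reported here, and that member is not drawn, although counts over all members include it.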

Additional observations from a re-analysis of the deposited data

Results flagged for a closer look

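In 4 members other than ITGB4 the HIF-1α re-expressing cells differed from the HIF-2α overexpressing cells in the direct test, in the edgeR fit with the replicate block. In that fit 4.54% of all genes were higher and 1.38% lower in the HIF-1α cells. Without the block 0 members passed. The HIF-1α libraries are also those of the comparison that proposed the family. The log2 difference between these pools was 3.62 for ITGA11, 2.75 for ITGA2B, 2.1 for ITGB3 and 2.37 for LAMA5. Each was higher in the HIF-1α cells in 3 of 3 replicate pairs, as were 25.3% of all genes. No explanation was tested for these 4 differences. Groups of 3 libraries are too small for a search for outlying samples.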

How the results depend on the processing

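The counts of called members depended on how the replicate number was treated, and so did those of all genes, whose shares stand in the report. The counts here include ITGB4 where its value passed, although it is only a description in both comparisons with HIF-1α cells. Members called higher in HIF-1α re-expressing than in control cells numbered 0 in the fit without the block, 7 with the replicate block, 3 with DESeq2 and 12 with DESeq2 and the block. Lower members numbered 0, and 2 with DESeq2 and the block. With replicates left out, the higher members ranged from 0 to 5. Against HIF-2α overexpressing cells there were 0 higher without and 5 with the block, 1 with DESeq2, 9 with DESeq2 and the block, and 1 with no filter on low counts. With a library left out this count ranged from 0 to 1, and with a replicate number left out of the blocked fit it was 4 each time. In HIF-2α overexpressing against control cells, 1 member was lower with DESeq2 and the block. The median log2 difference of members in that comparison ranged from -0.05 to 0.322 with a library left out, the highest without control replicate 1, and that between HIF-1α and HIF-2α cells was 0.369 without replicate 3 in the blocked fit.

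Leaving out replicate number 3 in the blocked fit turned the sign of 3 values, to 0.20 for ITGB6 between HIF-1α re-expressing and control cells, and to 0.26 for LAMA1 and 0.15 for LAMA2 between HIF-1α and HIF-2α cells. None of these was called in those fits, and the cause was not tested. With peaks counted to 50 kb, members with a peak numbered 21 for HIF-1α (39.2% of placed genes), 11, 5 and 17 for HIF-2α in control, HIF-1α and HIF-2α cells (9.3%, 8.01% and 22.4%), and 22 and 14 for HIF-1β in control and HIF-2α cells (35.1% and 23.4%). Size factors of DESeq2 in edgeR and fits of only the compared pools moved no count of called members. Scarce genes such as ITGA11, ITGA2B and LAMA4 are limited by their counts.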
